A study of Homo sapiens with 4 samples.

Results

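The 60 genes described here build and run the mitotic cell: kinetochore subunits, spindle checkpoint proteins, mitotic kinases, the chromosomal passenger complex, the activators and substrates of the anaphase-promoting complex (APC/C), mitotic cyclins, spindle and cytokinesis factors, condensin, topoisomerase II alpha and the proliferation marker MKI67. They were chosen by name from general knowledge of mitosis, with the KIF kinesins left out and with earlier results of these data known. They make up 60 of the 48162 genes in the deposited table. The symbol found 59 of them, and CENPU, listed under its older symbol MLF1IP, was found by its gene identifier. RNA came from MDA-MB-231, an established human breast cancer line with a mesenchymal, triple-negative character. One group received MGH-CP1, an inhibitor of TEAD autopalmitoylation, for 24 h (2 libraries), and the other received vehicle for the same 24 h (2 libraries). The sample labels give the dose as 10 µM and the methods as 10 mM. All 4 libraries come from the same line grown in the same medium, and the labels do not state whether replicates were separate cultures, so p-values measure only the spread between these libraries, which may be technical.

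Cells enter mitosis when CDK1 bound to cyclin B becomes active, and condensin and topoisomerase II then compact and disentangle the chromosomes. Kinetochores assemble on centromeres that hold the histone variant CENPA, the outer NDC80 complex grips microtubules, and the spindle checkpoint holds back CDC20 until every chromosome is attached. APC/C then marks securin and cyclin B for destruction, first with CDC20 and later with its other activator, FZR1 (also called CDH1), and the sister chromatids part. Many of these genes are transcribed mainly in G2 and M phase. In proliferating cells this is driven by FOXM1 and by the MYB-MuvB complex acting through CHR elements, often together with NF-Y at CCAAT boxes.

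Expression was given as FPKM, fragments scaled to the length of each gene and to the library's total. Between 17577930 and 25508824 fragments per library could be recovered from the FPKM, with both MGH-CP1 libraries shallower than both vehicle control libraries. The members had between 156 and 24239 fragments in each library. Mitochondrial genes took 0.418% to 0.447% of fragments in vehicle control and 1.53% to 1.57% in MGH-CP1; with those genes left out of the totals, 57 of the 60 members were still called lower. The line's markers were present, with VIM at 259 to 281 FPKM and CD44 at 198 to 221, neither of them called. EGFR (49.7 and 48.5 FPKM in vehicle control, 34.9 and 36.1 in MGH-CP1) and KRT18 (115 and 114, then 86.8 and 93.2) were also present and were called lower in the same fit, while ESR1 did not exceed 0.0243 FPKM and the summed leukocyte markers did not exceed 0.0431 in any library. ERBB2, not amplified in this line, was listed at 24.7 to 28.4 FPKM.

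Transcripts for nearly the whole mitotic set were less abundant after MGH-CP1. Of the 60 genes, 58 fell and none rose (limma on log2(FPKM + 1), two-sided, Benjamini-Hochberg adjusted p below 0.05 over the 12080 genes whose mean was 1 FPKM or more), where 23.8% of all genes tested fell and 27.1% rose. At an unadjusted limma p below 0.05 the same 58 were lower and 0 higher. Over all genes tested, 6911 of the 12080 passed that unadjusted threshold in either direction. All 60 passed the filter on low values. The 2 that were not called, MAD1L1 and FZR1, were also the ones with both MGH-CP1 libraries above both vehicle control libraries. Both MGH-CP1 libraries lay below both vehicle control libraries for the other 58, an order seen in that direction in 37.4% of all genes tested and in the opposite direction in 39.8%. The median log2 fold change of the 60 was -0.76 (SD 0.06 over the 4 ways to pair a treated with a vehicle library, which are not independent), against 0.01 over all genes tested. In FPKM, the median member was 42.3% lower (quartiles 35.6% and 46.9%), and 7 were over 50% lower. A log2 fold change below -0.5 was reached by 52 members and by 6.18% of all genes tested, and 49 members lay below the 5th percentile of all genes (-0.54).

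**Figure D1:**
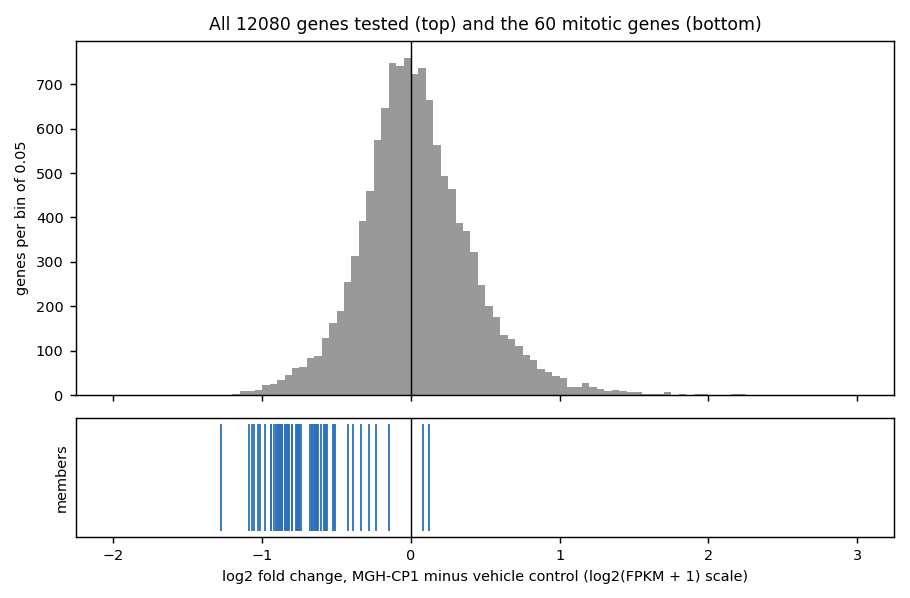
Histogram of the log2 fold change (MGH-CP1 minus vehicle control, log2(FPKM + 1) scale) of all 12080 genes tested, in bins of 0.05, above a strip with 1 line for each of the 60 mitotic genes. The mitotic genes gather around their median of -0.76, to the left of the peak of all genes at about 0, and 2 of them lie above 0.

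The 60 genes together took 1.07% (95% Wilson interval 1.07% to 1.08%) and 1.04% (1.03% to 1.04%) of the fragments of the vehicle control libraries. In the MGH-CP1 libraries they took 0.572% (0.568% to 0.575%) and 0.614% (0.610% to 0.617%). These intervals cover counting error only. In bulk RNA, fewer cells in G2 and mitosis and less RNA per cell cannot be told apart, and this holds for every value given here. An exact permutation test (two-sided) of 1 gene can never reach 0.05 with groups this small, as its smallest p is 0.33; the calls depend on the variance estimate that limma pools across genes. With each gene's own variance alone, 0 of the 60 passed the adjustment (ordinary t-test, smallest adjusted p = 0.0524). Of the 60, 54 had an unadjusted p below 0.05 in that t-test, as did 4947 of the 12080 genes tested.

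**Figure D2:**
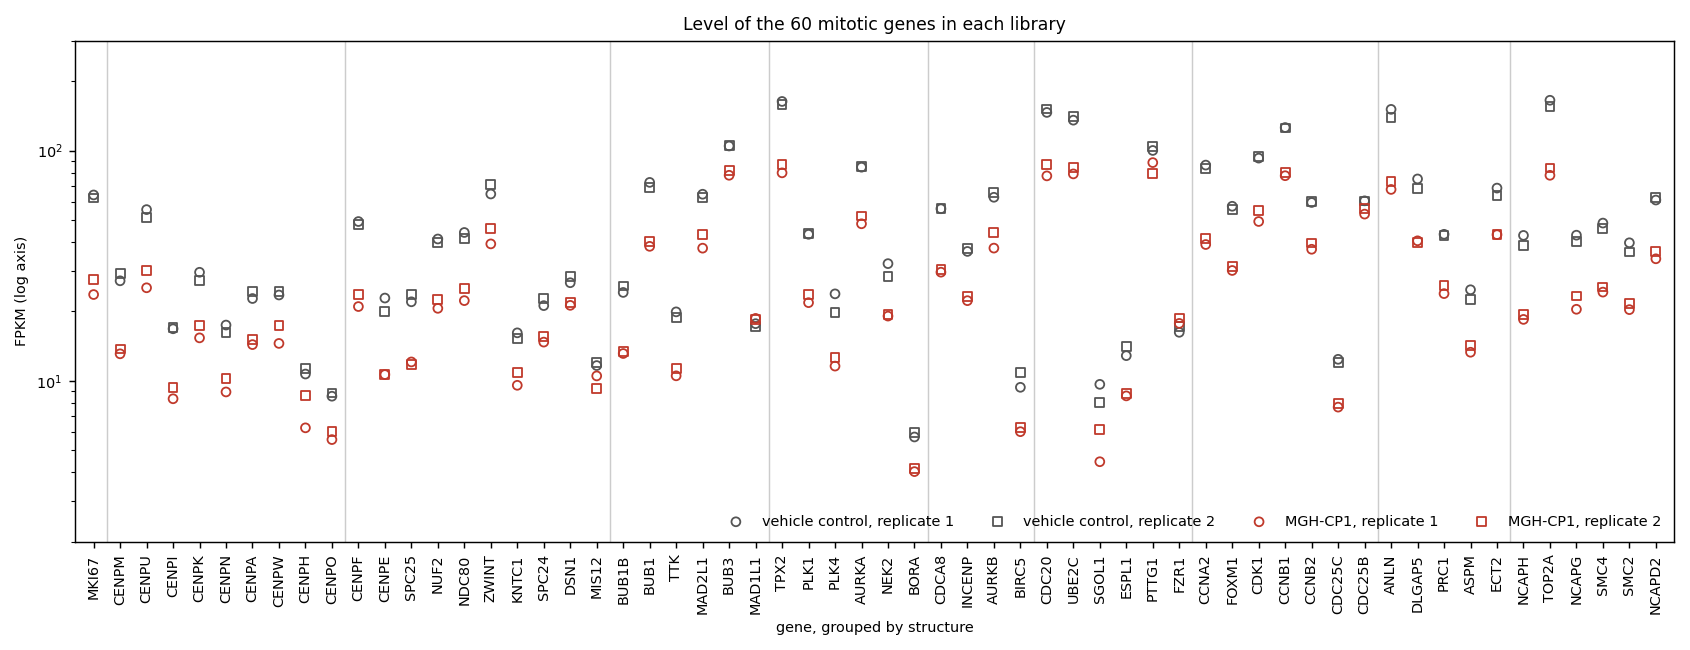
FPKM (log axis) of each of the 60 genes in each of the 4 libraries, vehicle control in grey and MGH-CP1 in red, with circles for replicate 1 and squares for replicate 2, grouped by structure. Grey symbols lie above red ones for 58 genes, and the order is turned for MAD1L1 and FZR1, at the right ends of their groups.

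MKI67 encodes Ki-67, the coat of mitotic chromosomes that pathologists stain to count cycling cells. Its level was 64.1 and 62.2 FPKM in vehicle control and 23.7 and 27.5 in MGH-CP1, so the groups were far apart. It was 59.5% lower, the deepest fall of the 60 (log2 fold change -1.28 ± 0.07 SE, limma adjusted p = 1.96e-05), and stood at rank 2 from the lowest among all genes tested. The gene (ENSG00000148773) lies on the minus strand at chr10:129894923-129924649 in hg19, the build named in the submitters' processing notes.

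The gene nearest to 0 was MAD1L1 (ENSG00000002822, minus strand, chr7:1855429-2272878 in hg19), which encodes MAD1, the kinetochore scaffold that recruits the checkpoint protein MAD2. MAD1L1 read 17.7 and 17.2 FPKM in vehicle control and 18.7 and 18.5 in MGH-CP1. Its log2 fold change was 0.08 (95% interval -0.05 to 0.21, limma adjusted p = 0.244), and the interval holds 0 but not the median of the set.

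Promoters are shown because many G2 and M phase genes share short elements just upstream of their start. The first pair below is the gene with the deepest fall (MKI67) and the gene nearest to 0 (MAD1L1), and CCNB2 and CDC20 were added as mitotic promoters with well-known layouts. Each line gives the 250 bases before the RefSeq start in GRCh38.p14, 5′ to 3′ on the gene's strand: MKI67 at chr10:128126424-128126673 (minus), MAD1L1 at chr7:2232946-2233195 (minus), CCNB2 at chr15:59104896-59105145 (plus) and CDC20 at chr1:43358731-43358980 (plus). Capitals mark the CHR letters TTTGAA (or, in another accepted form of the element, TTCGAA), the CCAAT box, and the TEAD core GGAATG. Each was searched on both strands, so that a CHR on the reverse strand reads TTCAAA here, and a CCAAT box on the reverse strand reads ATTGG.
MKI67: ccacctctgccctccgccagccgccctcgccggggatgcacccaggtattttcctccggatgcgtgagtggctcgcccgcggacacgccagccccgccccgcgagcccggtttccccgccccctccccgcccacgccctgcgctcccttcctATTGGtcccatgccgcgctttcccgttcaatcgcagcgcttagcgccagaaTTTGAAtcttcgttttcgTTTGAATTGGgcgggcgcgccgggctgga
MAD1L1: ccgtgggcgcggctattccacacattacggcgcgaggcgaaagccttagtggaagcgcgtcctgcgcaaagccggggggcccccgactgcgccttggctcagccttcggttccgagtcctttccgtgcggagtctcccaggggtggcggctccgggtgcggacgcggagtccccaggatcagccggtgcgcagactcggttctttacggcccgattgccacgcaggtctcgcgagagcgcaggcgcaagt
CCNB2: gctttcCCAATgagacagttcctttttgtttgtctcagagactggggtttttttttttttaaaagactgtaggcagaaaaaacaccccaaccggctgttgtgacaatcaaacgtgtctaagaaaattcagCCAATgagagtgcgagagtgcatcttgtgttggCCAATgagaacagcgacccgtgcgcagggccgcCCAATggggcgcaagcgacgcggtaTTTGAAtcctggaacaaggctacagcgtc
CDC20: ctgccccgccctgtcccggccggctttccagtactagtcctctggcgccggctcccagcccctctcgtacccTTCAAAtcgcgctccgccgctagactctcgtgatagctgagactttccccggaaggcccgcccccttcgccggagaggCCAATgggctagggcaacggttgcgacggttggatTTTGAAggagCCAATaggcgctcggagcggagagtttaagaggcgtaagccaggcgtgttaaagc

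The MKI67 window held TTTGAA at 47 and 29 bases before the start and ATTGG at 98 and 24, and the elements at 29 and 24 bases overlap by 1 base. The CCNB2 window held CCAAT at 244, 120, 87 and 54 bases before the start and TTTGAA at 29. In CDC20, TTCAAA stood at 178 bases, CCAAT at 100 and 55 and TTTGAA at 65. The MAD1L1 window held none of these letters. No GGAATG was found in any of the 4. A match is a description of the letters and not a site shown to be bound.

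RefSeq windows from 250 bases before to 50 after the start (300 bases) could be matched to 50 of the 60 genes; CENPH, CENPM, KNTC1, BUB3, TTK, AURKA, TPX2, BIRC5, UBE2C and FOXM1 had no entry. CHR letters were present for 36 of the 50 (72%), against 15.3% of the 8492 tested genes with a window and 19.5% of all 27305 genes with one. CCAAT was present for 37 (74%), against 43.6% of tested genes and 39.7% of all. Both together occurred for 26 (52%), against 6.52% and 7.85%. GGAATG was present for 7 (14%), against 15.1% and 16.7%. CHR and CCAAT letters were thus more frequent in the set than among tested genes, and GGAATG was about as frequent, with no test made of these shares. Within the set, the median log2 fold change was -0.80 for the 36 genes with CHR letters and -0.65 for the 14 without, and -0.74 with CCAAT against -0.86 without. It was -0.75 with both elements against -0.81 without that pair, and -0.88 for the 7 genes with GGAATG against -0.76 for the 43 without. The 14 without CHR letters in this window include MAD1L1 and the shallow fallers MIS12, DSN1 and PTTG1, and also CCNA2 and NCAPH, which were among the deepest. Only TTTGAA and TTCGAA were searched, so any other form of the element counts as absent here. FZR1, the highest of the 60, and CDC25B, the smallest called fall, both hold CHR letters, so small changes occurred with and without them.

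The inner kinetochore, which sits on centromeric chromatin, fell as a whole: 9 of 9 genes were called lower, with a median log2 fold change of -0.76. CENPA, the centromeric histone H3 variant, went from 22.8 and 24.4 FPKM to 14.4 and 15.2 (log2 fold change -0.64 ± 0.06 SE, limma adjusted p = 0.000128). CENPM, a subunit of the constitutive centromere-associated network, fell furthest, from 27.2 and 29.2 FPKM to 13.1 and 13.7 (-1.02 ± 0.06, limma adjusted p = 2.46e-05). CENPU, which docks PLK1 at the centromere, came next, from 55.4 and 51.1 FPKM to 25.3 and 30.1 (-0.92 ± 0.08, limma adjusted p = 9.07e-05). The smallest fall of the layer was that of CENPO, which forms a subcomplex with CENPU, from 8.56 and 8.85 FPKM to 5.55 and 6.02 (-0.52 ± 0.07, limma adjusted p = 0.000799). The 95% intervals of CENPM (-1.16 to -0.88) and CENPO (-0.69 to -0.35) do not overlap, which is a description only, since they were picked as the ends of the range.

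All 10 outer kinetochore genes fell as well, with a median of -0.75, but over a wider range. CENPF, a large corona protein, went from 49.2 and 47.6 FPKM to 21.0 and 23.6 (log2 fold change -1.09 ± 0.06 SE, limma adjusted p = 2.41e-05). CENPE, the motor that carries chromosomes to the metaphase plate, went from 22.9 and 19.9 FPKM to 10.6 in both MGH-CP1 libraries (-0.94 ± 0.07, limma adjusted p = 5.67e-05). MIS12, which joins the NDC80 complex to the inner layer, moved least, from 11.6 and 12.0 FPKM to 10.5 and 9.27 (-0.24 ± 0.07, limma adjusted p = 0.0292). Its call was lost without vehicle control replicate 1 (limma adjusted p = 0.0572), vehicle control replicate 2 (0.0884) or MGH-CP1 replicate 2 (0.167). Within the 4-subunit NDC80 complex, a group looked at after its values were seen, SPC24 had the smallest fall (-0.51 ± 0.06), and NDC80, NUF2 and SPC25 lay between -0.89 and -0.83.

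**Figure D3:**
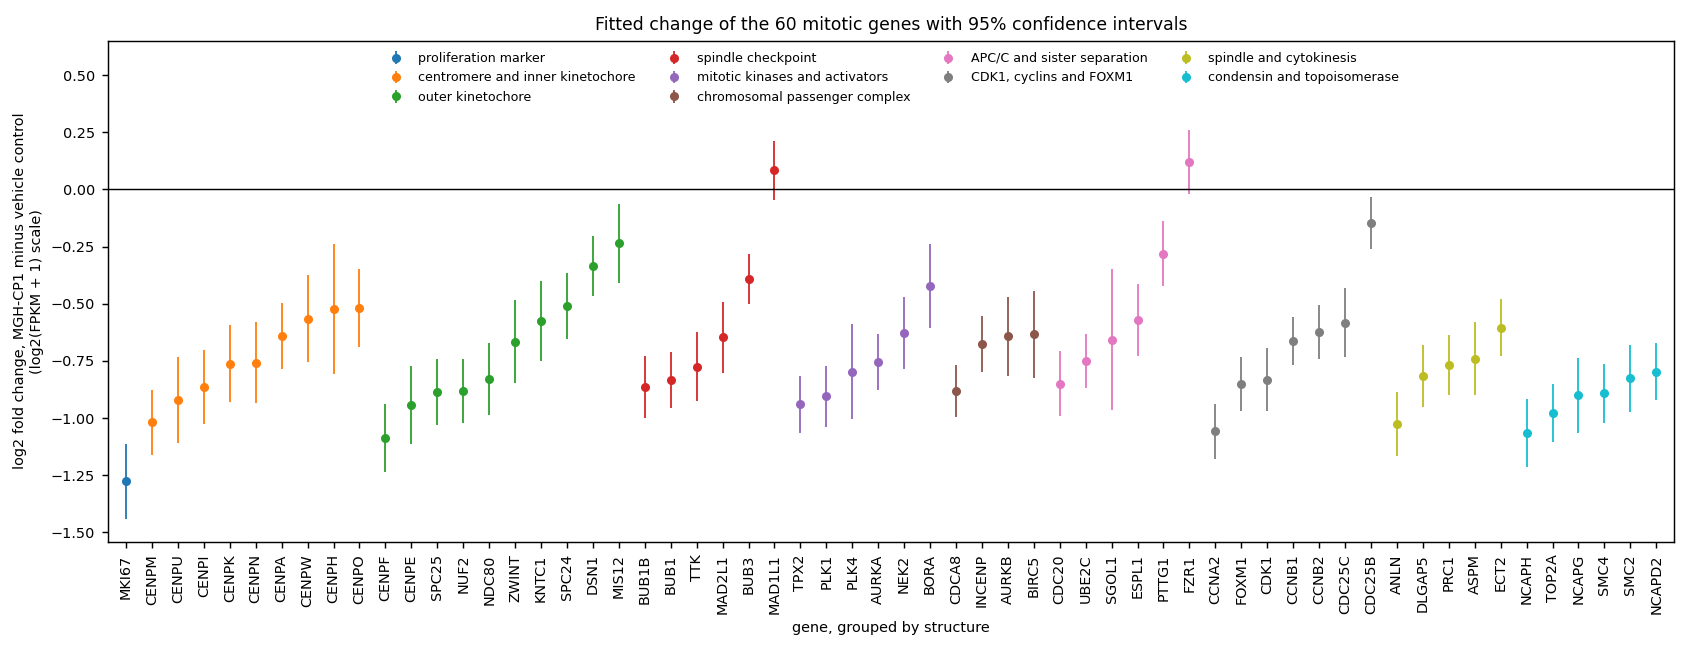
Log2 fold change (MGH-CP1 minus vehicle control, log2(FPKM + 1) scale) of each of the 60 genes with its 95% interval from limma, coloured and grouped by structure. Intervals lie wholly below 0 for 58 genes, with MKI67 lowest at -1.28, and cross 0 for MAD1L1 and FZR1.

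Of the 6 spindle checkpoint genes, 5 fell and MAD1L1, described above, did not pass the test. BUB1B, which encodes the checkpoint effector BUBR1, went from 24.2 and 25.8 FPKM to 13.1 and 13.4 (log2 fold change -0.86 ± 0.06 SE, limma adjusted p = 3.45e-05). BUB1, the kinase that marks centromeric chromatin, went from 72.7 and 68.8 FPKM to 38.4 and 40.2 (-0.83 ± 0.05, limma adjusted p = 2.71e-05). Within each library, MAD2L1 stood at 3.65 and 3.63 times the FPKM of MAD1L1 in vehicle control and at 2.02 and 2.33 times in MGH-CP1. BUB1 likewise stood at 0.695 and 0.654 times BUB3, its binding partner, in vehicle control and at 0.491 and 0.492 times in MGH-CP1. Neither ratio overlapped between the groups. These pairs, and the other ratios given below, were chosen after the values were seen. The share of other gene pairs whose ratios do not overlap was not computed.

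The mitotic kinases and their activators fell in 6 of 6 cases, with a median of -0.78. PLK1, the polo-like kinase of mitotic entry and exit, went from 43.3 and 43.7 FPKM to 21.8 and 23.7 (log2 fold change -0.91 ± 0.06 SE, limma adjusted p = 2.69e-05). AURKA, the centrosome and spindle pole kinase, went from 84.7 and 85.2 FPKM to 48.1 and 51.9 (-0.75 ± 0.05, limma adjusted p = 3.73e-05). TPX2, which targets and activates AURKA on spindle microtubules, was among the most abundant members, at 163 and 158 FPKM in vehicle control and 80.0 and 86.8 in MGH-CP1 (-0.94 ± 0.05, limma adjusted p = 2.11e-05). BORA, the cofactor through which AURKA activates PLK1, was the least abundant of the 60, with 5.70 and 5.97 FPKM against 4.03 and 4.17 (-0.42 ± 0.08, limma adjusted p = 0.00293). The ratio of TPX2 to AURKA was 1.93 and 1.85 in vehicle control and 1.66 and 1.67 in MGH-CP1.

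The chromosomal passenger complex, which corrects faulty attachments and later acts in the midzone, fell in all 4 of its subunits. CDCA8, borealin, went from 55.9 and 56.2 FPKM to 29.6 and 30.3 (log2 fold change -0.88 ± 0.05 SE, limma adjusted p = 1.91e-05), with near-identical replicates. INCENP, the scaffold, went from 36.4 and 37.4 FPKM to 22.3 and 23.2 (-0.68 ± 0.05, limma adjusted p = 5.49e-05). AURKB, the kinase, went from 62.7 and 65.8 FPKM to 37.7 and 44.1 (-0.64 ± 0.07, limma adjusted p = 0.000288). BIRC5, survivin, was listed at 9.36 and 10.8 FPKM in vehicle control and 6.01 and 6.25 in MGH-CP1 (-0.63 ± 0.08, limma adjusted p = 0.000515). AURKB and INCENP kept overlapping ratios, at 1.72 and 1.76 in vehicle control and 1.69 and 1.90 in MGH-CP1.

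Of the APC/C activators, CDC20 fell and FZR1 did not pass the test. CDC20, the activator of metaphase and anaphase, went from 146 and 152 FPKM to 77.6 and 87.1 (log2 fold change -0.85 ± 0.06 SE, limma adjusted p = 4.02e-05). FZR1 (ENSG00000105325, plus strand, chr19:3506271-3538328 in hg19), the activator of late mitosis and G1, read 16.2 and 17.2 FPKM in vehicle control and 17.7 and 18.7 in MGH-CP1. Its log2 fold change was 0.12 (95% interval -0.02 to 0.26, limma adjusted p = 0.140), and that interval lies wholly above the interval of CDC20 (-0.99 to -0.71). Within each library CDC20 stood at 9.02 and 8.82 times FZR1 in vehicle control and at 4.37 and 4.65 times in MGH-CP1. UBE2C, the ubiquitin-conjugating enzyme that APC/C uses, went from 136 and 141 FPKM to 79.2 and 84.4 (-0.75 ± 0.05, limma adjusted p = 3.39e-05). The other members of this group, separase (ESPL1), its inhibitor securin (PTTG1) and shugoshin (SGOL1), which guards centromeric cohesin, also fell, with log2 fold changes from -0.66 to -0.28. PTTG1 has close copies elsewhere in the genome, so its reads may be shared.

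All 7 genes of the CDK1, cyclin and FOXM1 group fell, with a median of -0.66. CDK1 went from 92.7 and 94.0 FPKM to 49.2 and 55.0 (log2 fold change -0.83 ± 0.06 SE, limma adjusted p = 4.02e-05). CCNA2, cyclin A2, which acts in S phase and G2, went from 86.5 and 83.5 FPKM to 39.1 and 41.6 (-1.06 ± 0.05) and had the smallest limma adjusted p of the 60, 1.50e-05. CCNB1, cyclin B1, went from 126 and 125 FPKM to 77.7 and 80.2 (-0.66 ± 0.05, limma adjusted p = 3.45e-05). The estimate for cyclin A2 (95% interval -1.18 to -0.94) was lower than that for cyclin B1 (-0.77 to -0.56). This is a description only, since cyclin A2 was the lowest of its group and no test compared the pair. The ratio of CCNA2 to CCNB1 was 0.687 and 0.667 in vehicle control and 0.502 and 0.519 in MGH-CP1. The B-type cyclins kept overlapping proportions, with a CCNB1 to CCNB2 ratio of 2.12 and 2.09 in vehicle control and 2.09 and 2.02 in MGH-CP1.

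FOXM1, the transcription factor that drives G2 and M phase genes, was itself lower, with 57.3 and 55.3 FPKM in vehicle control and 30.1 and 31.4 in MGH-CP1 (log2 fold change -0.85 ± 0.05 SE, limma adjusted p = 2.46e-05). CDC25B, a phosphatase that starts CDK1 activation, changed least among the called genes, from 60.5 and 60.3 FPKM to 53.0 and 56.0, or 9.82% lower (-0.15 ± 0.05, limma adjusted p = 0.0393). Its call was lost on leaving out any 1 library, and its log2 fold change lay between -0.20 and -0.11 over all settings. The call was also lost under quantile normalization (limma adjusted p = 0.104) and, separately, with totals without mitochondrial genes (0.0588). It was lost as well with no filter on low values (0.0907) and in limma without the trend (0.103). CDC25C, its paralogue of mitotic entry, stood at 0.205 and 0.199 times CDC25B in vehicle control and at 0.145 and 0.142 times in MGH-CP1.

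The 5 spindle and cytokinesis genes all fell, with a median of -0.77. ANLN, anillin, the scaffold of the cleavage furrow, went from 151 and 139 FPKM to 67.8 and 73.4 (log2 fold change -1.03 ± 0.06 SE, limma adjusted p = 2.32e-05). DLGAP5, a spindle microtubule protein also called HURP, went from 75.3 and 68.2 FPKM to 40.5 and 40.0 (-0.82 ± 0.06, limma adjusted p = 3.83e-05). ECT2, the exchange factor that activates RhoA at the division site, fell least in this group, from 68.7 and 63.6 FPKM to 43.1 in both MGH-CP1 libraries (-0.61 ± 0.05, limma adjusted p = 9.11e-05).

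Condensin and topoisomerase II alpha had the lowest median of the structures with more than 1 gene, -0.90, with 6 of 6 called lower within a narrow range of -1.07 to -0.80. TOP2A, which untangles sister DNA, was among the most abundant members, at 165 and 156 FPKM in vehicle control and 78.1 and 84.0 in MGH-CP1 (log2 fold change -0.98 ± 0.06 SE, limma adjusted p = 1.98e-05). NCAPH, the kleisin of condensin I, went from 42.8 and 38.8 FPKM to 18.5 and 19.4 (-1.07 ± 0.06, limma adjusted p = 2.41e-05). NCAPD2, a HEAT-repeat subunit of condensin I, went from 61.0 and 62.4 FPKM to 33.9 and 36.4 (-0.80 ± 0.05, limma adjusted p = 3.28e-05). The ATPases SMC2 and SMC4 are shared by both condensins. The ratio of SMC4 to SMC2 was 1.22 and 1.26 in vehicle control and 1.19 and 1.18 in MGH-CP1. The gap between the groups was smaller than that between the vehicle control replicates, so no shift in proportion is read from it. NCAPH stood at 1.08 and 1.07 times SMC2 in vehicle control and at 0.907 and 0.899 times in MGH-CP1. Whether the medians of the structures differ was not tested, since their genes are not replicates.

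The size of the fall was uneven between replicates of the treated group. In MGH-CP1, replicate 2 read higher than replicate 1 for 53 of the 60 genes (88.3%), with a median difference of 0.09 on the log2(FPKM + 1) scale, against 49.0% of all genes tested. In vehicle control, replicate 2 was higher for 28 of the 60 (46.7%), with a median of -0.01. The median log2 fold change of the 60 was -0.82 without MGH-CP1 replicate 2 and -0.70 without MGH-CP1 replicate 1, so the direction held in both, and the cause of this difference between replicates was not tested. The 58 called genes had log2 fold changes below 0 in each of the 4 library pairs, and MAD1L1 and FZR1 above 0. This restates the order of the libraries given earlier, seen below in 37.4% and above in 39.8% of all genes tested.

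**Figure D4:**
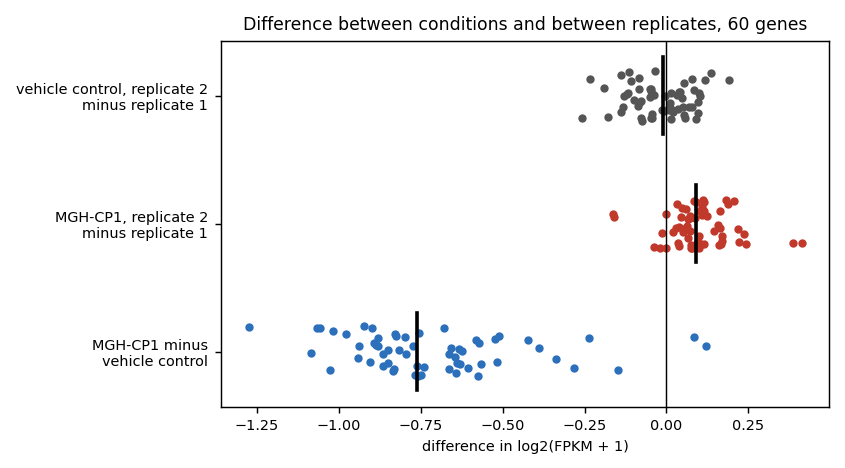
Differences in log2(FPKM + 1) for the 60 genes, 1 point per gene with a black line at the median: MGH-CP1 minus vehicle control (blue), MGH-CP1 replicate 2 minus replicate 1 (red) and vehicle control replicate 2 minus replicate 1 (grey). Replicate differences centre on 0.09 and -0.01, and the difference between conditions centres on -0.76.

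Across the 60 genes, the log2 fold change was lower where the vehicle control FPKM was higher (Pearson -0.36, Spearman -0.38, n = 60 genes read in the same 4 libraries). This is a description only, since a pseudocount of 1 shrinks low genes and the same vehicle control values enter both quantities. Listed gene bodies of 18 members overlap those of 22 other tested genes, and the sources used here do not say whether counting used strand. CENPA shares 16943 bases on the same strand with SLC35F6 (log2 fold change -0.10). CENPN shares 716 bases on the same strand with a gene named only by its clone. That gene went from 20.6 and 21.2 FPKM in vehicle control to 8.07 and 8.90 in MGH-CP1 (log2 fold change -1.21). Among the 42 members without such an overlap, 41 fell, with a median of -0.76.

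Other mitotic genes, from chosen lists that do not cover every structure in full, were counted in the same fit. Of 82 such genes 80 were tested, and 66 fell, 5 rose and 9 were not called, with a median log2 fold change of -0.59. Over all genes tested, 23.8% fell and 27.1% rose, the shares to set beside every list counted from here on. In the other inner kinetochore genes, 9 of 11 fell, from HJURP, the CENPA chaperone (-0.81), and 1 rose, the histone-fold subunit CENPT, from 6.82 and 6.55 FPKM to 9.02 and 8.91 (0.38 ± 0.07 SE, limma adjusted p = 0.00262). The other outer kinetochore genes fell in 8 of 9 cases, with SKA3, of the microtubule-tracking SKA complex, lowest (-1.08) and NSL1, a partner of MIS12, not called (-0.05, limma adjusted p = 0.580). Checkpoint and cohesion protection genes fell in 7 of 8 cases, with TRIP13, which recycles MAD2, lowest (-0.95) and MAD2L1BP not called (0.06, limma adjusted p = 0.388).

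Among the 14 core subunits of the APC/C ubiquitin ligase, 5 fell (35.7%), 3 rose and 6 were not called, with a median of -0.14. These shares are not far from the 23.8% lower and 27.1% higher over all genes tested, so nothing particular to the subunits is read from them. ANAPC1, the largest subunit, was lowest (-0.50), and ANAPC2, the cullin subunit, rose from 20.8 and 20.7 FPKM to 28.2 and 27.6 (0.41 ± 0.05 SE, limma adjusted p = 0.000472). FBXO5, the APC/C inhibitor EMI1, fell from 25.4 and 22.3 FPKM to 11.9 in both MGH-CP1 libraries (-0.94 ± 0.07, limma adjusted p = 4.75e-05).

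Cohesin, which holds the sisters together, fell in 5 of 5 subunits, from SMC1A (-0.70) to STAG2 (-0.21), and condensin II fell in 3 of 3, from NCAPG2 (-0.63) to NCAPH2 (-0.57). Their medians were -0.47 and -0.63, beside -0.90 for the condensin I, shared SMC and TOP2A members. Other mitotic entry genes fell in 14 of 14 tested cases, from CDC25A (-0.85) to WEE1, the kinase that restrains CDK1 (-0.41). Of the other spindle and cytokinesis genes, 13 of 14 fell, with FAM83D lowest (-0.96), and NUMA1, the spindle pole protein, rose from 27.1 and 28.3 FPKM to 37.2 in both MGH-CP1 libraries (0.41 ± 0.05 SE, limma adjusted p = 0.000418).

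The mitotic kinesins, left out of the 60, fell in 12 of 12 cases with a median of -0.81, from KIF23, a centralspindlin motor (-1.10), to KIF22 (-0.53). Replication origin and fork genes, which belong to S phase, fell in 26 of 26 cases with a median of -0.70, from MCM10 (-0.97) to POLD1 (-0.41). A fall was thus also seen in genes of S phase, and whether the medians differ was not tested.

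**Figure D5:**
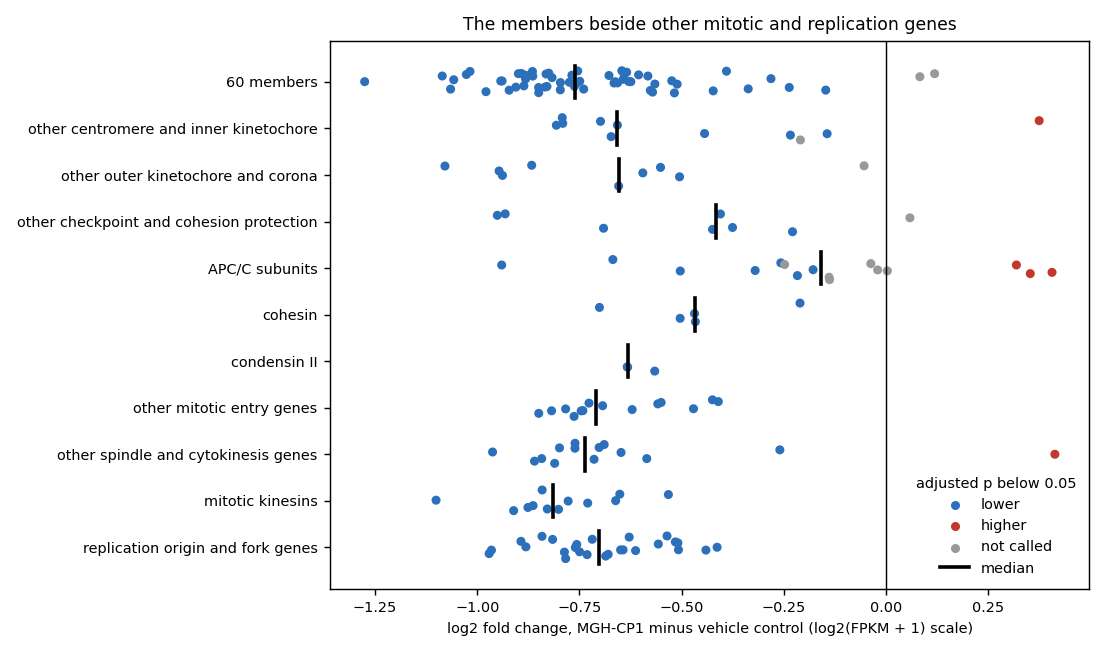
Log2 fold change (MGH-CP1 minus vehicle control, log2(FPKM + 1) scale) of each tested gene in the 60 members and in each other list, coloured by call at limma adjusted p below 0.05, with a black line at the median. Medians run from -0.81 for the mitotic kinesins and -0.76 for the members to -0.16 for the APC/C list, which holds points on both sides of 0.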

How the data were processed

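Poly-T selected RNA of MDA-MB-231 cells was sequenced in 2 vehicle control and 2 MGH-CP1 libraries. The authors deposited FPKM for 48162 genes with symbol, coordinates and length; the submitters' processing notes name CASAVA 1.8, STAR and hg19, and the counting tool is not given in the sources used here. Multiplied by gene length, 100% of the deposited FPKM were whole multiples of 1 fragment (tolerance 0.01), so fragments were recovered for depth, shares and 2 alternatives. The 12080 genes averaging 1 FPKM or more were compared on log2(FPKM + 1) with limma 3.58.1 in R 4.3.3 (lmFit, eBayes with trend, 5.97 prior degrees of freedom), two-sided, Benjamini-Hochberg adjusted over all of them, threshold 0.05. Fold changes on this scale understate the change of low genes. Code was tested on simulated data. Members and lists were chosen with earlier results of these data known. Genes named with values were MKI67, the 2 lowest and 1 highest of each structure, 10 central regulators (CDK1, CCNB1, PLK1, AURKA, AURKB, CDC20, FZR1, TOP2A, CENPA, FOXM1), and the lowest and highest of each other list; any other was chosen after its values were seen. Alternatives covered scaling, pseudocount, filters, variance model, voom, thinning, a replicate block and leaving out each library. Promoters came from RefSeq (GRCh38.p14), matched by symbol; their coordinates were not mixed with hg19. Markers of other cell types were PTPRC, CD3E and CD68 (leukocyte), VWF and CDH5 (endothelial, summed FPKM at most 0.0311) and COL1A1, DCN and PDGFRB (fibroblast, summed FPKM 2.65 to 3.42).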

Additional observations from a re-analysis of the deposited data

How the results depend on the processing

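The median of the 60 stayed between -0.82 and -0.70 on leaving out each library, between -0.81 and -0.75 under median-ratio scaling, quantile normalization and totals without mitochondrial genes, and was -0.80 with limma voom on recovered fragments and -0.76 with every library thinned to 17577930 fragments. Between 53 and 58 of the 60 were called lower in every setting other than each gene's own variance, and none was called higher in any setting. Leaving out 1 library gave 56 to 57. With no filter on low values, CDC25B, MIS12, CENPH, SGOL1 and PTTG1 lost their calls (limma adjusted p from 0.0751 to 0.119). In that setting 1844 of 24878 genes tested were called lower, in place of 2869 of 12080. A minimum mean of 5 FPKM left 59 members tested, without BORA. With each gene's own variance in an ordinary t-test, 0 members were called lower. Over all genes, 4 were then lower and 9 higher, with 4947 at an unadjusted p below 0.05 in that t-test. Of the other mitotic genes, 0 were lower and 0 higher. This setting leaves 2 against 2 libraries with no shared variance. For the 33 named members, 451 single-gene values kept direction and call, 43 lost the call, 31 of them with each gene's own variance, and none reversed. The cause of these losses was not tested.

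The replicate number was also fitted as a block. Across the 12080 genes tested, the difference between replicates in MGH-CP1 and that in vehicle control had a Pearson correlation of 0.0777. The labels do not say that a number marks a shared culture, so the libraries share only a number. With the replicate block, 58 members were called lower, as without it, and over all genes 3052 lower and 3466 higher, against 2869 and 3273.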
